A study of Mus musculus with 18 samples.

Results

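Tnf, the gene of the cytokine tumour necrosis factor, was followed across 18 RNA libraries as the row of that symbol in the deposited count table, 1 of 43280 symbols. The libraries were made from macrophages that had been differentiated in culture from the bone marrow of C57BL/6J mice with a wild-type genotype. In vivo, the marrow donors had received PBS, 1xLPS or 4xLPS, and in vitro their macrophages were given either no stimulus (NO) or LPS. LPS, lipopolysaccharide, is a component of the outer membrane of Gram-negative bacteria. The 6 groups of 3 libraries are PBS_NO, 1xLPS_NO, 4xLPS_NO, PBS_LPS, 1xLPS_LPS and 4xLPS_LPS. The labels used here give no dose, route or duration of LPS and no age of the mice, and nothing in them says that libraries 1 to 3 of a group stem from different mice. P-values therefore describe only how these libraries vary, and that variation may be technical.

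Macrophages sense LPS through Toll-like receptor 4, whose signal releases NF-kappaB and activates MAP kinases, and Tnf is among the first genes to be transcribed. TNF is made as a membrane-bound trimer, is cut from the cell surface by the metalloprotease ADAM17, and acts through the receptors TNFR1 and TNFR2. Its message is short-lived, because an AU-rich element in its 3′ untranslated region is bound by tristetraprolin, the product of Zfp36, and is spared when the kinase MK2 is active. Macrophages that meet LPS again often make less TNF than on first contact, which is known as endotoxin tolerance.

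Tnf (ENSMUSG00000024401.14) lies on the minus strand of chromosome 17 at 35199381 to 35202007 in the mouse build GRCm38 (mm10), and GENCODE M21 gives it 2 transcripts. The transcript used here has 4 exons and 1639 spliced bases, and no exon of another annotated gene overlaps it. The 250 bases before its start (RefSeq, GRCm38.p6, chr17:35202008-35202257, minus strand) are shown because the transcription factors described further on are known for acting there. Capitals mark a match to a loose form of the NF-kappaB motif, which is GGG followed after any 5 bases by CC, and the TATA box.

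Tnf promoter: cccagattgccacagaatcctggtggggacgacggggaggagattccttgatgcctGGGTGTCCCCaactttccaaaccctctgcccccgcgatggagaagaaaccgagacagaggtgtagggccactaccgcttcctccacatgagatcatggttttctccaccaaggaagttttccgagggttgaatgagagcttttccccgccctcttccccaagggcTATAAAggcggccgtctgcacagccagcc

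Motifs were searched on both strands in this window and in the same window of 32817 RefSeq promoters. The loose NF-kappaB motif began 194 bases before the start, a position that read as a match on both strands, and 45.8% of promoters held at least 1 match. TATAAA began 29 bases before the start, against 12.4% of promoters with a match. GGAA, the core bound by ETS factors, was found at 7 positions (93.4% of promoters have it), GGGCGG at 1 position (32.7%), and TGACGTCA at none (1.55%). No 2 of the matches marked in capitals overlap.

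The second sequence is the core of the AU-rich element, at which the message-destabilising proteins described further on are known to bind (GENCODE M21 transcript, GRCm38, chr17:35199679-35199708, minus strand, exon 4). Capitals mark the run covered by copies of TTATTTATT.

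Tnf AU-rich element: aTTATTTATTATTTATTTATTATTTATTta

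It begins 437 bases after the stop codon. The 764 bases of the 3′ untranslated region held 5 copies of TTATTTATT, 4 of them in the stretch shown, and 8 copies of ATTTA, overlaps counted. In the last 764 bases of the transcripts of 20582 genes, 3.71% had at least 1 TTATTTATT, and 10 genes (0.0486%) had at least as many as Tnf.

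Total counts ran from 9296453 to 54050622 per library, and levels are given as CPM, the reads of a gene relative to all reads of its library after TMM scaling, with factors of 0.822 to 1.11. Macrophage markers (8 of 8 tested, Adgre1 under its older symbol Emr1) summed to 12647 to 24667 CPM in each library. The sums were at most 147 CPM for neutrophil markers (6 of 8 tested), 9.54 for T and NK cell markers (1 of 6), 5.30 for dendritic cell markers (1 of 5), 1.11 for B cell markers (0 of 4) and 0.222 for mast cell markers (0 of 5). Stromal markers (6 of 6 tested, none at 0 in all libraries), genes of fibroblast-like cells, summed to between 1103 and 4328 CPM. Most of this sum came from the collagen genes Col1a2, Col1a1 and Col3a1 (medians over all libraries 1042, 845 and 197 CPM). Dcn, Cxcl12 and Pdgfra added little (medians 47.8, 46.4 and 19.4 CPM), so the stromal sums below mainly follow collagen genes. On the second principal component (14.4% of the variance) 1xLPS_NO 1 (-66.6) and 1xLPS_LPS 3 (-55.8) lay apart from the other libraries, which ran from -25.4 to 29.5. An earlier analysis of these data had set 3 libraries apart, these 2 and PBS_LPS 3, which is the library at -25.4 and the one with the lowest Tnf of PBS_LPS. Results that rest on them are given without the 3 libraries and also without the 2, an alternative chosen after seeing the data. The treatment tag names another arm than the title for 12 of 18 samples, with PBS and 4xLPS exchanged. Groups were taken from the titles, which match the column names of the table. When a column is matched to a sample through the sample number, the arm in its name is that of the tag in 18 of 18 columns. If the treatment tags held and columns were matched to samples by title, every direction between the PBS and 4xLPS arms below would turn. Comparisons of the 1xLPS arm with either of them would then change partner. If the tags held and columns were matched through the sample number, no direction would turn.

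Without stimulation, Tnf was low in all 3 arms. It stood at 21.5, 23.6 and 21.6 CPM in libraries 1, 2 and 3 of PBS_NO. In 1xLPS_NO the values were 27.2, 20.1 and 23.0 CPM. In 4xLPS_NO they were 20.7, 22.6 and 23.7 CPM. The 3 groups overlapped, and the highest value of all was that of 1xLPS_NO 1, 1 of the 2 libraries apart on the second component. These levels rest on 218 to 1141 reads per library.

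With LPS in vitro, Tnf was high in all 3 arms, and its level varied between libraries and between arms. Libraries 1, 2 and 3 of PBS_LPS held 4498, 4223 and 2239.7 CPM. In 1xLPS_LPS they held 2334, 2031 and 973 CPM. The 3 libraries of 4xLPS_LPS held 1424, 1607 and 1469 CPM. Every stimulated library lay far above every unstimulated one, and within both PBS_LPS and 1xLPS_LPS library 3 was lower than the other two by a wide margin. Library 3 of 1xLPS_LPS is apart on the second component. Library 3 of PBS_LPS (-25.4) was the lowest there after the 2 libraries that lay apart, and below all others of both conditions. The next was 4xLPS_NO 1 (-18.7). The remaining stimulated libraries ran from -4.75 to 16.5 there. The spread within groups was accordingly uneven, with a highest value 2.01 times the lowest in PBS_LPS, 2.40 times in 1xLPS_LPS and 1.13 times in 4xLPS_LPS.

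**Figure D1:**
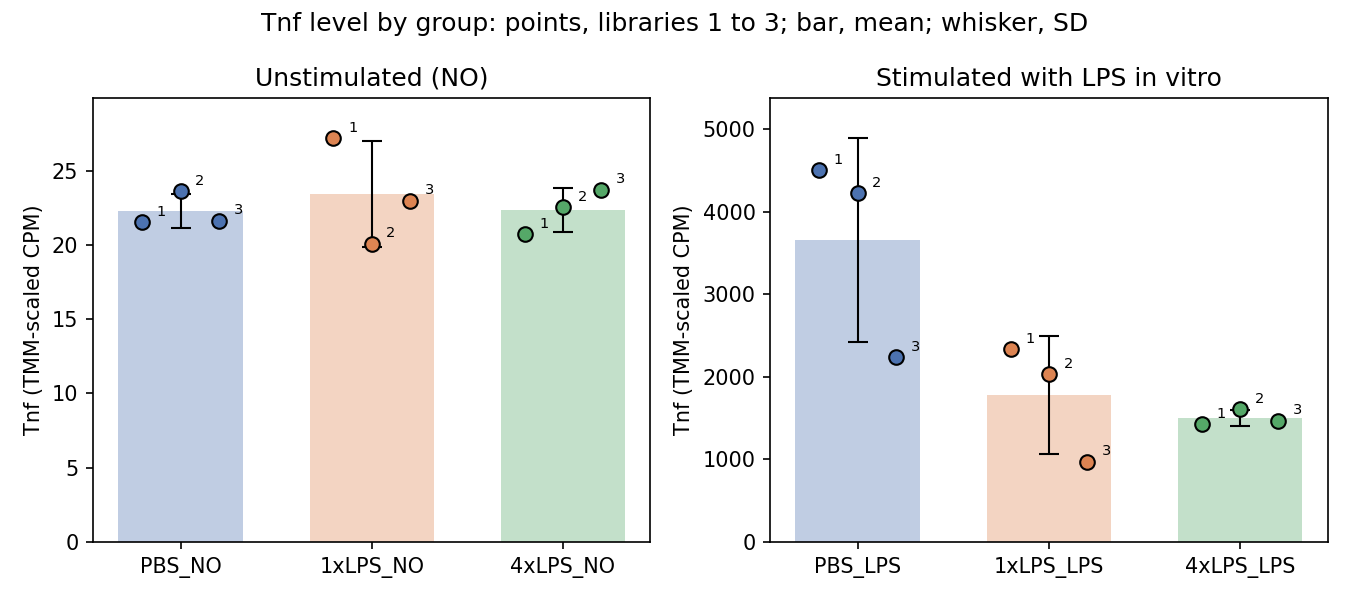
Tnf level in TMM-scaled CPM in the 3 unstimulated groups (left) and the 3 groups stimulated with LPS (right), on separate linear axes that start at 0. Points are libraries 1 to 3, bars are means and whiskers are SDs (n = 3): unstimulated libraries sit between 20.1 and 27.2 CPM and stimulated libraries between 973 and 4498 CPM.

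As a share of all reads, which depends on no scaling factor, Tnf took 0.395%, 0.380% and 0.211% in PBS_LPS. The share was 0.238%, 0.190% and 0.0800% in 1xLPS_LPS, and 0.151%, 0.173% and 0.152% in 4xLPS_LPS. The exact (Clopper-Pearson) 95% binomial interval of the first of these values ran from 0.392% to 0.398%, and such intervals cover counting error only. Counting error was small beside the spread between libraries in PBS_LPS and 1xLPS_LPS, where no such intervals overlapped. In 4xLPS_LPS those of libraries 1 and 3 did (0.149% to 0.152% and 0.151% to 0.154%).

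Per kilobase of exon, the scale on which genes can be set beside each other, Tnf stood at 13.6 CPM per kb in PBS_NO, 14.3 in 1xLPS_NO and 13.6 in 4xLPS_NO. It ranked 3348, 3303 and 3332 there among the 13477 tested genes that have an annotated length (24.8%, 24.5% and 24.7% from the top). Under stimulation the mean levels were 2229 CPM per kb in PBS_LPS, 1086 in 1xLPS_LPS and 915 in 4xLPS_LPS, at ranks 17, 35 and 32 (0.126%, 0.260% and 0.237% from the top).

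The order of the group means was PBS_NO (22.3 ± 1.16 CPM, SD, n = 3), 4xLPS_NO (22.3 ± 1.5), 1xLPS_NO (23.4 ± 3.56), 4xLPS_LPS (1499.8 ± 95.3), 1xLPS_LPS (1779 ± 714) and PBS_LPS (3654 ± 1232). Among the unstimulated groups no neighbours differed beyond their spread, and neither did 4xLPS_LPS and 1xLPS_LPS, whose libraries overlapped. The libraries of 1xLPS_LPS and PBS_LPS also overlapped, because 1xLPS_LPS 1 was higher than PBS_LPS 3. The libraries of 4xLPS_LPS and PBS_LPS did not.

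The first question of the design is how macrophages of each arm answer LPS in vitro. Tnf rose 164-fold in the PBS arm (log2 fold change 7.36 ± 0.35, SE, adjusted p = 7.01e-11, edgeR's quasi-likelihood test with Benjamini-Hochberg adjustment over 14158 tested genes). In the 1xLPS arm it rose 76.0-fold (6.25 ± 0.33, adjusted p = 4.74e-10, edgeR), and in the 4xLPS arm 67.1-fold (6.07 ± 0.33, adjusted p = 5.04e-10, edgeR). It was called higher in all 3 arms, where called means an adjusted p under 0.05. The share of all tested genes called higher was 14% in the PBS arm, 12% in the 1xLPS arm and 10.6% in the 4xLPS arm, and 11.3%, 10.8% and 8.29% were called lower. By log2 fold change Tnf ranked 12th, 14th and 16th from the top in these comparisons. Summed stromal markers moved with LPS too, at 1103 to 1260 CPM in PBS_NO against 1897 to 2139 in PBS_LPS, and at 2164 to 2437 in 4xLPS_NO against 3276 to 3399 in 4xLPS_LPS, without overlap. In the 1xLPS arm the stromal sums overlapped (1539 to 2661 and 2174 to 4328 CPM). Sums of T and NK cell markers were lower with LPS in the PBS arm (5.38 to 7.60 against 2.78 to 5.04 CPM) and the 4xLPS arm (6.03 to 9.06 against 2.55 to 3.24), and those of dendritic cell markers higher (1.07 to 1.43 against 2.68 to 3.94, and 2.22 to 2.43 against 3.89 to 4.14). The T and NK cell sum was almost wholly Cd4 (median over all libraries 5.43 CPM), with the other medians at most 0.0358 CPM. The dendritic cell sum was mostly Zbtb46 (median 1.61 CPM), with Ccr7 at 0.296 CPM and the others at most 0.0604 CPM. These 2 sums therefore follow mainly single genes. The part of the summed markers in the Tnf rise was not tested. In bulk RNA, more cells that express Tnf and more Tnf message per cell cannot be told apart.

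In each arm the stimulated and unstimulated libraries did not overlap, as was so for 24.1%, 15.1% and 27.4% of tested genes in the higher direction in the PBS, 1xLPS and 4xLPS arms. The two-sided exact permutation p in each arm was 0.1, the smallest that 3 libraries against 3 allow. With labels exchanged within arms over all 18 libraries, the mean difference on the log2 CPM scale was 6.51 and the two-sided exact permutation p was 0.00025, the smallest that the 8000 arrangements can give. The rise was called in every alternative setting tried, with a log2 fold change of at least 7.02 in the PBS arm, 5.97 in the 1xLPS arm and 6.00 in the 4xLPS arm.

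Between arms without stimulation, Tnf did not differ beyond the spread between libraries. The log2 fold change was 0.07 ± 0.27 in 1xLPS_NO over PBS_NO (95% interval -0.50 to 0.64, adjusted p = 0.927, edgeR). It was 0.01 ± 0.27 in 4xLPS_NO over PBS_NO (-0.56 to 0.57, adjusted p = 1, edgeR) and -0.07 ± 0.27 in 4xLPS_NO over 1xLPS_NO (-0.64 to 0.51, adjusted p = 0.964, edgeR). The intervals leave room for changes of up to about 1.5-fold in either direction, so the test does not show that the levels were equal. In these 3 comparisons edgeR called 0% of all tested genes. At an unadjusted p under 0.05 the shares were 11.8% (1669 genes), 6% (849) and 9.55% (1352), and DESeq2 called 28, 110 and 37. Summed stromal markers were 1103 to 1260 CPM in PBS_NO, 1539 to 2661 in 1xLPS_NO and 2164 to 2437 in 4xLPS_NO.

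**Figure D2:**
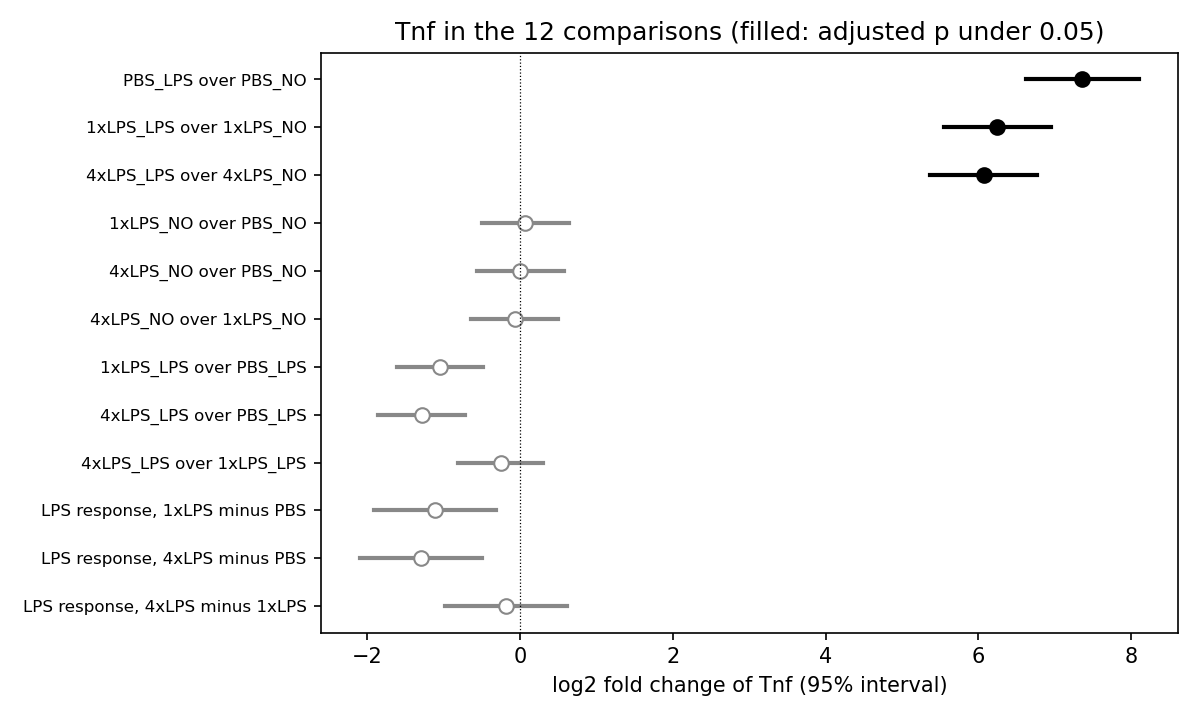
Log2 fold change of Tnf in the 12 comparisons with its 95% interval (points and lines), filled where the adjusted p from edgeR is under 0.05. The 3 LPS responses lie between 6.07 and 7.36, and the comparisons between arms are open, with the stimulated 1xLPS and 4xLPS arms below PBS and intervals that exclude 0.

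Between arms after LPS in vitro, mean Tnf was lower after 1xLPS and after 4xLPS than after PBS, and neither difference passed the threshold. In 4xLPS_LPS over PBS_LPS the log2 fold change was -1.28 ± 0.27 (95% interval -1.85 to -0.72), a level 2.44 times lower (interval 1.65 to 3.60), with an unadjusted p of 0.000153 and an adjusted p of 0.0942 by edgeR. All 3 libraries of 4xLPS_LPS lay below all 3 of PBS_LPS, which held for 14% of tested genes in that direction, and the two-sided exact permutation p was 0.1, the smallest possible. EdgeR called 11 genes in this comparison, 0.0777% of those tested, with 0.0141% called lower, while DESeq2 called 326. An unadjusted p under 0.05 was seen for 13.9% of tested genes, and for 6.07% in the lower direction, and Tnf was 23rd by p and 35th from the bottom by log2 fold change.

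Whether this difference passed depended on the setting. DESeq2 called it (-1.34, adjusted p = 0.000944), and so did edgeR fitted on only these 2 groups (-1.27, adjusted p = 0.0306) and edgeR without a filter on low counts (-1.30, adjusted p = 3.66e-06). Leaving out PBS_LPS 3, the low library of the PBS arm, gave -1.57 (adjusted p = 0.0426, edgeR), and leaving out PBS_LPS 1 gave -1.11 (adjusted p = 0.395, edgeR). Leaving out 1xLPS_LPS 3 or 1xLPS_LPS 1, which are in neither group but enter the shared estimate of the spread, gave adjusted p-values of 0.0173 and 0.048 by edgeR. Without the 3 libraries set apart by the earlier analysis, PBS_LPS 3 among them, the value was -1.58 ± 0.12 (adjusted p = 9.42e-06, edgeR). Without only the 2 that lay apart on the second component, which leaves both compared groups whole, it was -1.33 ± 0.19 (adjusted p = 0.00917, edgeR). In every setting tried the direction was the same, with values between -1.58 and -0.998. The authors' deposited table gives a verdict in words for each comparison as a whole, and for this one it reads "Good DE", against "No DE" for the other 2 comparisons of stimulated arms.

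**Figure D3:**
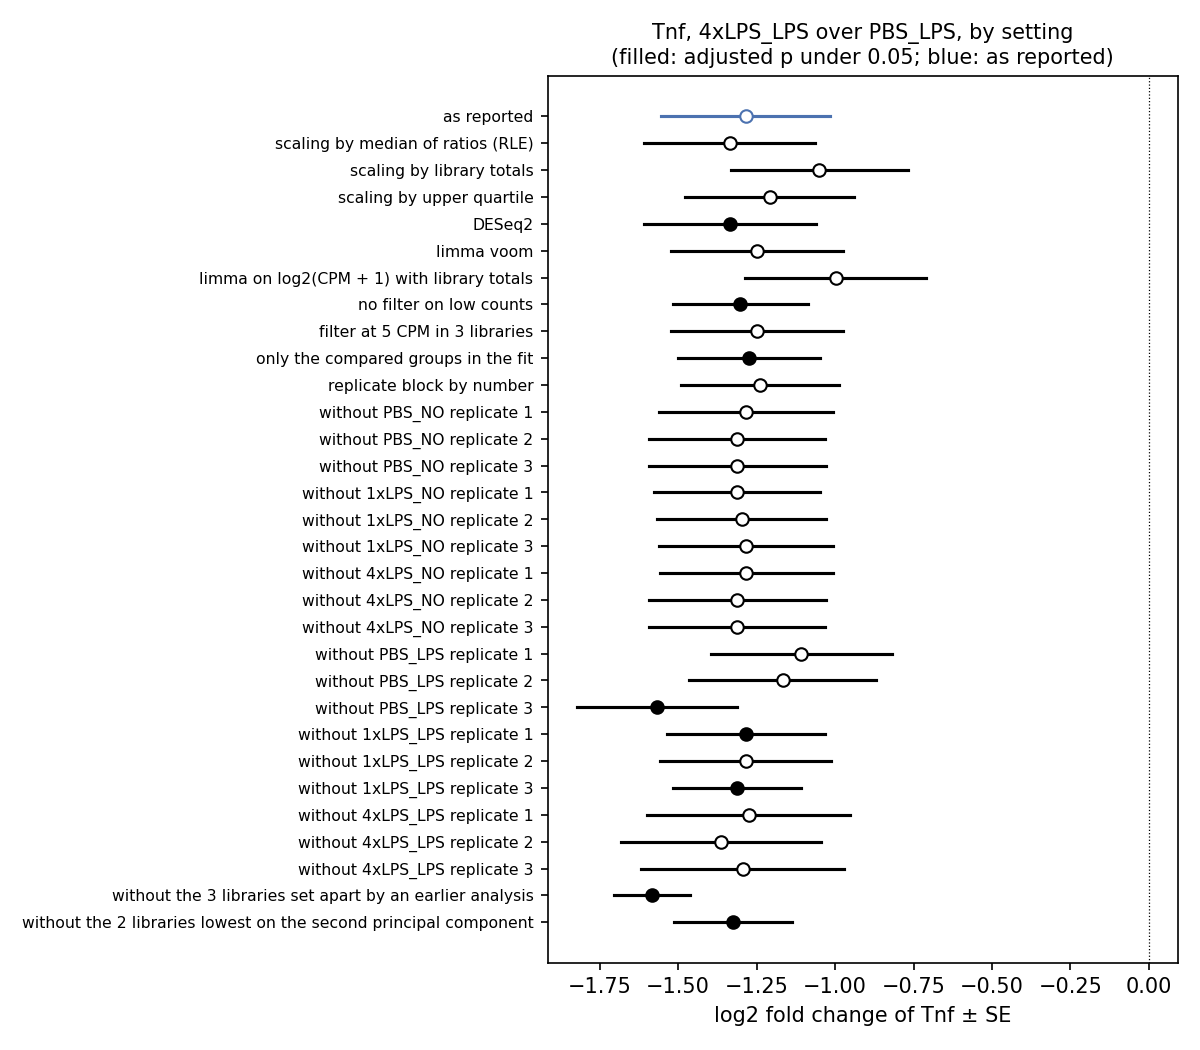
Log2 fold change of Tnf in 4xLPS_LPS over PBS_LPS (points, with SE as lines) as reported and under 30 other settings, filled where the adjusted p is under 0.05. All points lie between -1.58 and -0.998, and 8 are filled.

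Summed stromal markers moved with this comparison, at 1897 to 2139 CPM in PBS_LPS and 3276 to 3399 CPM in 4xLPS_LPS, without overlap. The sum is mostly that of collagen genes, and changes of single markers are not given here. Summed macrophage markers were 17615 to 24667 CPM and 16452 to 18774 CPM, which overlap. The part of cell composition in the Tnf difference was not tested. TMM factors also did not overlap (0.879 to 0.944 in PBS_LPS, 1.04 to 1.08 in 4xLPS_LPS), and with scaling by library totals alone the difference was -1.05 ± 0.28 (adjusted p = 0.0931, edgeR).

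In 1xLPS_LPS over PBS_LPS the log2 fold change was -1.04 ± 0.27 (95% interval -1.60 to -0.48), or 2.05 times lower, with an unadjusted p of 0.00111 and an adjusted p of 0.54 by edgeR. The groups overlapped, and the two-sided exact permutation p was 0.2. EdgeR called 0% of genes here, with 1085 genes (7.66%) at an unadjusted p under 0.05, and DESeq2 called 11. Removing any 1 library left Tnf uncalled, with values from -1.30 to -0.75. Without the 3 libraries it was called at -1.03 (adjusted p = 0.0176, edgeR), without the 2 it was not (-0.77, adjusted p = 0.219, edgeR), and without a filter on low counts at -1.01 (adjusted p = 0.00334, edgeR). Stromal sums were 4328, 2632 and 2174 CPM in libraries 1, 2 and 3 of 1xLPS_LPS, all above PBS_LPS. Summed neutrophil markers were 51.2 to 67.9 CPM in 1xLPS_LPS and 99.9 to 127 CPM in PBS_LPS, without overlap. The part of either in the result was not tested.

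The stimulated 4xLPS and 1xLPS arms did not differ detectably in Tnf (log2 fold change -0.25 ± 0.27, 95% interval -0.80 to 0.31, adjusted p = 0.81, edgeR). The value went from -0.56 without 1xLPS_LPS 3 to -0.0021 without 1xLPS_LPS 1, so single libraries set its size. EdgeR called 0% of genes in this comparison, with 848 (5.99%) at an unadjusted p under 0.05, and DESeq2 called 1.

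The difference of the LPS responses is the direct test of whether the arms answer LPS differently. The Tnf response was smaller than in the PBS arm by 1.11 ± 0.38 on the log2 scale in the 1xLPS arm (difference -1.11, 95% interval -1.91 to -0.31, unadjusted p = 0.00917, adjusted p = 0.453, edgeR's quasi-likelihood test). In the 4xLPS arm the difference was -1.29 ± 0.38 (-2.09 to -0.49, unadjusted p = 0.00327, adjusted p = 0.808, edgeR). Neither passed the threshold, and both share the PBS libraries. The 4xLPS and 1xLPS responses differed by -0.18 ± 0.38 (-0.98 to 0.62, adjusted p = 1, edgeR). EdgeR called 0% of genes in all 3 tests, with 1154 (8.15%), 803 (5.67%) and 300 (2.12%) genes at an unadjusted p under 0.05, and DESeq2 called 34, 6 and 0. Without the 3 libraries the 4xLPS minus PBS difference was -1.62 (adjusted p = 0.000493, edgeR), without the 2 it was -1.34 (adjusted p = 0.0942, edgeR), and without a filter on low counts it was -1.30 (adjusted p = 0.0268, edgeR).

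Tnf lies in the major histocompatibility complex between the genes of 2 relatives, lymphotoxin alpha (Lta, 1157 bases away) and lymphotoxin beta (Ltb, 3060 bases away). Lta was below the filter, with a mean of 0.0553 ± 0.0182 CPM in PBS_NO (5 reads in all) and 0.718 ± 0.340 CPM in PBS_LPS (75 reads). Ltb was low too and rose in all 3 arms. In PBS_NO it stood at 0.209 ± 0.0575 CPM, and in PBS_LPS at 1.24 ± 0.141 CPM (a difference of 2.55 ± 0.53 on the log2 scale, adjusted p = 0.00128, edgeR). In 4xLPS_LPS Ltb stood at 1.22 ± 0.529 CPM, a difference from PBS_LPS of -0.03 on the log2 scale.

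Of the 9 genes around Tnf, 8 were tested, and in the PBS arm 2 rose and 1 fell with LPS, where 14% of all tested genes rose and 11.3% fell. Beside Ltb, Prrc2a, an RNA-binding protein gene, rose (0.77 ± 0.19) and Atp6v1g2, a subunit of the proton pump V-ATPase, fell (-1.57 ± 0.51, at a mean of 3.04 CPM). Not called were Nfkbil1 (0.64), Bag6 (0.28), a chaperone gene, Aif1 (-0.07), which encodes the actin-binding protein IBA1, Lst1 (-0.29) and Ddx39b (-0.37), an RNA helicase. In the 1xLPS arm Ltb rose and Ddx39b fell (-0.67 ± 0.14), and in the 4xLPS arm Ltb alone was called, against 22.8% and 18.9% of all tested genes called in either direction. Nfkbil1, Atp6v1g2 and Ddx39b share exons with other annotated genes, and since the strand setting of the counting is not given, their counts are uncertain. None of the 8 was called in 4xLPS_LPS over PBS_LPS, and their median was -0.07, against 0.02 for all tested genes.

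Of the 11 genes that carry TNF to the cell surface and release it there, all tested, 5 rose and 1 fell in the PBS arm, 3 rose and 1 fell in the 1xLPS arm, and 3 rose and 0 fell in the 4xLPS arm, against 25.3%, 22.8% and 18.9% of all tested genes called in either direction. Adam17, the TNF-converting enzyme, stood at 194 ± 17.6 CPM in PBS_NO and rose by 1.51 ± 0.24 on the log2 scale to 554 ± 50.4 CPM in PBS_LPS. Rhbdf2, whose product iRhom2 escorts ADAM17 to the surface, rose by 1.63 ± 0.25, and Stx6, a syntaxin known from mouse macrophages to carry TNF out of the Golgi, rose by 1.25 ± 0.19. Adam10, a related metalloprotease, fell by 0.81 (log2 fold change -0.81 ± 0.21). Timp3, an inhibitor of ADAM17, and Vamp3, a vesicle fusion protein, were not called (0.23 and -0.06). The median of the list in the PBS arm was 0.48, against -0.02 for all tested genes. In 4xLPS_LPS over PBS_LPS 0 of 11 were called, with Adam17 and Rhbdf2 both at -0.30 and a list median of -0.23. Timp3, whose value there was added after the values were seen, had 1.13 ± 0.26 (unadjusted p = 0.000433, adjusted p = 0.136, edgeR). In unstimulated cells Timp3 had a similar value, 1.101 ± 0.2628 in 4xLPS_NO over PBS_NO (unadjusted p = 0.000554, adjusted p = 0.174, edgeR). The Timp3 difference was thus not particular to stimulated cells. Its LPS response differed by 0.0293 ± 0.3674 between the 4xLPS and PBS arms (adjusted p = 0.989, edgeR). Exons of Adam17 and Timp3 overlap other genes.

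The genes that control the Tnf message moved in both directions. In the PBS arm 5 of 19 rose and 3 fell, with 4 and 2 in the 1xLPS arm and 5 and 2 in the 4xLPS arm. Of all tested genes, 14%, 12% and 10.6% rose and 11.3%, 10.8% and 8.29% fell in these arms. Mapkapk2, the gene of MK2, rose by 2.29 ± 0.22 on the log2 scale, from 252 ± 48.1 CPM to 1233 ± 131 CPM. Zc3h12a, whose product regnase-1 cuts cytokine messages, rose by 1.82 ± 0.23. Zfp36l1 and Zfp36l2, relatives of tristetraprolin that bind the same element, had log2 fold changes of -1.95 ± 0.19 and -1.36 ± 0.15. Zfp36 itself, named here after its values were seen, stood at 157 ± 8.96 CPM in PBS_NO and 358 ± 57.2 CPM after LPS (1.19 ± 0.17, adjusted p = 2.7e-05, edgeR). Its log2 fold change was 0.83 ± 0.17 in the 1xLPS arm and 0.98 ± 0.17 in the 4xLPS arm, both called. Pabpc1, the poly(A)-binding protein, and Khsrp, an AU-rich element binder, were not called (0.28 and -0.13). Between 4xLPS_LPS and PBS_LPS 0 of 19 were called, with Mapkapk2 at -0.55 (adjusted p = 0.263, edgeR), Pabpc1 at -0.21 and a list median of 0.00. The following values were added after they were seen, and none was called. Zfp36l1 was at 0.61 (adjusted p = 0.17, edgeR) and Zfp36l2 at 0.41 (0.24), while Zfp36 was at -0.50 (0.211) and Zc3h12a at -0.60 (0.252). Zfp36, Zfp36l1, Zfp36l2 and Khsrp have exons that overlap other genes.

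Among the receptors of TNF and their signalling proteins, 14 of 31 rose and 1 fell in the PBS arm, 10 rose and 1 fell in the 1xLPS arm, and 11 rose and 2 fell in the 4xLPS arm, beside the same background of 14%, 12% and 10.6% of all tested genes that rose and 11.3%, 10.8% and 8.29% that fell. Traf1, an adaptor of TNFR2, was at 7.45 ± 1.26 CPM in PBS_NO and 357 ± 102 CPM after LPS, a rise of 5.58 ± 0.25 on the log2 scale. The ubiquitin-editing inhibitor A20 (Tnfaip3) rose by 3.99 ± 0.30, its partner Tnip1 by 2.89 ± 0.18 and the ubiquitin ligase Birc3 by 2.68 ± 0.17. All of these encode inhibitors, adaptors or ligases that act downstream of the receptors. Tnfrsf1a, the gene of TNFR1, was not called, at 215 ± 13.5 CPM in PBS_NO and 285 ± 5.91 CPM in PBS_LPS (0.40 ± 0.16, adjusted p = 0.0683, edgeR), and neither was the kinase gene Ikbkb (0.28 ± 0.12, adjusted p = 0.112, edgeR). Tnfrsf1b, the gene of TNFR2, was called (1.87 ± 0.15) and went from 1012 ± 90.6 to 3699 ± 388 CPM. It was added here after its values were seen.

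**Figure D4:**
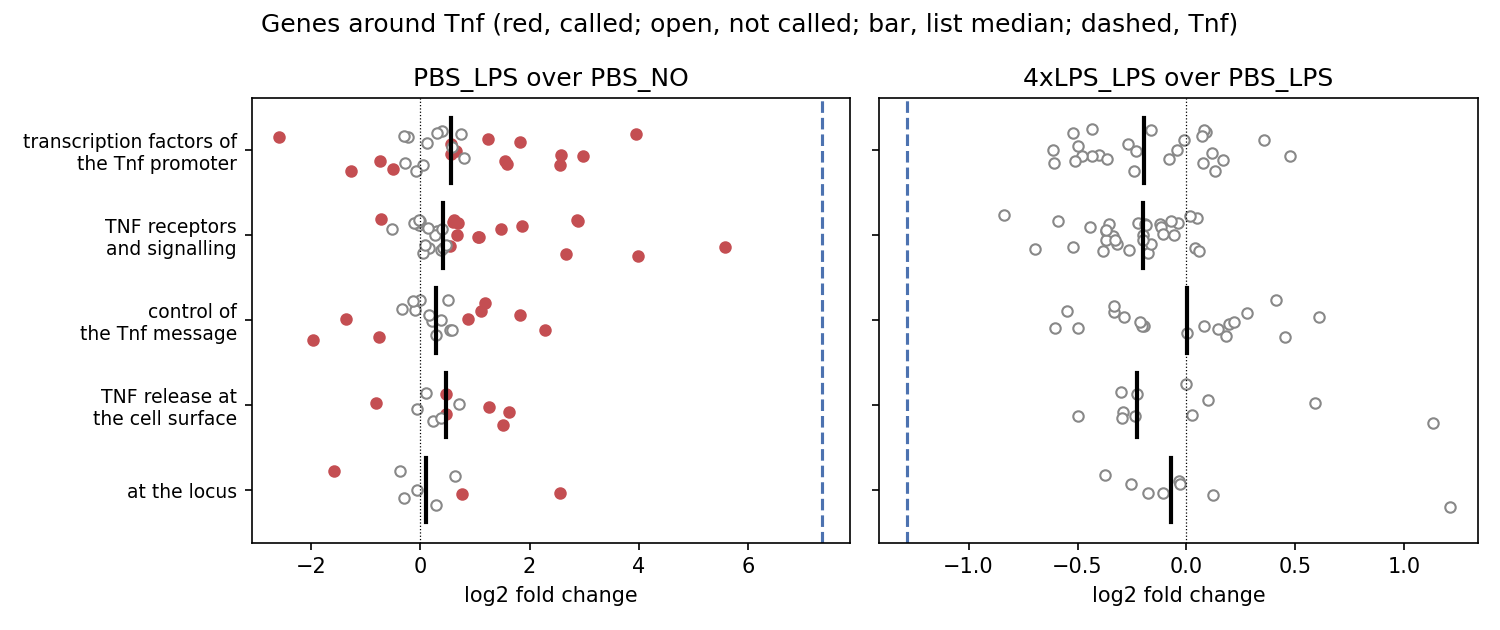
Log2 fold change of the tested genes of 5 lists around Tnf (circles, red where the adjusted p from edgeR is under 0.05, open where not) in PBS_LPS over PBS_NO (left) and in 4xLPS_LPS over PBS_LPS (right, on another scale). Black bars are list medians and the dashed line is Tnf, which lies at 7.36 and -1.28, above every listed gene on the left and below every listed gene on the right.

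None of the 31 was called in 4xLPS_LPS over PBS_LPS. Their median was -0.20, and 27 of 31 had a value below zero, against 48.1% of all tested genes. Tnfrsf1b stood at 2579 ± 65.7 CPM in 4xLPS_LPS, a difference of -0.52 ± 0.15 (adjusted p = 0.158, edgeR), and Tnip1 differed by -0.59 ± 0.17 (adjusted p = 0.162, edgeR). In the difference of LPS responses between 4xLPS and PBS, 0 of 31 were called either. Genes of 1 pathway are not independent of each other, and these values carry no test of the list.

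Of the transcription factors known to act on the Tnf promoter, 11 of 26 rose and 4 fell in the PBS arm, and 11 rose and 3 fell in each of the other arms. The shares of all tested genes were 14% higher and 11.3% lower in the PBS arm, 12% and 10.8% in the 1xLPS arm, and 10.6% and 8.29% in the 4xLPS arm. Ets2, an ETS factor, rose by 3.95 ± 0.21 on the log2 scale, from 36.0 ± 4.39 to 558 ± 118 CPM. The NF-kappaB subunit genes Nfkb2 (2.98 ± 0.17), Relb (2.57 ± 0.15) and Nfkb1 (2.55 ± 0.17) rose with it. Litaf, named for its response to LPS, and Atf3, known in mice as a repressor of cytokine genes, were not called in the PBS arm (-0.27 and 0.05). Atf3 was called higher in the 4xLPS arm (0.55 ± 0.16, adjusted p = 0.0226, edgeR) and not called in the 1xLPS arm (0.32). These values of Atf3 in the other arms were added after they were seen. Nfkb2 and Litaf share exon sequence with other genes. In 4xLPS_LPS over PBS_LPS 0 of 26 were called and the median was -0.20, with Spi1, the gene of the macrophage factor PU.1, at -0.50 ± 0.16 (adjusted p = 0.192, edgeR) and Rela, the NF-kappaB subunit p65, at -0.43 ± 0.17 (adjusted p = 0.271, edgeR).

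Without the 3 libraries, an alternative added for the lists after seeing the data, 569 of all 14091 genes tested were called in 4xLPS_LPS over PBS_LPS, 1.52% higher and 2.52% lower. The list counts in that comparison went from 0 to 1 higher and 2 lower among the release genes. They went from 0 to 2 lower among the genes of message control, from 0 to 4 lower among receptors and signalling, and from 0 to 5 lower among the transcription factors, and stayed at 0 at the locus. In the PBS response without those libraries, 15 rather than 11 transcription factors and 17 rather than 14 receptor and signalling genes rose, while the share of all genes that rose went from 14% to 18.2% and the share that fell from 11.3% to 14.9%. Without only the 2 libraries, 574 of 14115 genes were called in 4xLPS_LPS over PBS_LPS (1.66% higher, 2.41% lower). The calls there were 1 higher among the release genes, 1 higher and 1 lower in message control, 4 lower among receptors and signalling, 5 lower among the transcription factors and 0 at the locus. In the PBS response of that setting 14 transcription factors, 17 receptor and signalling genes and 8 genes of message control rose, with 19.6% of all genes higher and 16.4% lower.

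The genes whose level followed Tnf most closely were sought among 9769 tested genes by the Pearson correlation of log2 CPM with Tnf. Over the 18 libraries, which share the contrast between unstimulated and stimulated cells, 6.66% of these genes had an r above 0.9. The 10 highest were Ccl3 (r = 0.998), Cxcl2, Cd40, Cxcl1, Ccl4, Nlrp3, Clec4e, Ppfibp2, Icam1 and Irg1 (0.994). Ccl3, Ccl4, Cxcl1 and Cxcl2 encode chemokines, CD40 is a costimulatory receptor, NLRP3 an inflammasome sensor, ICAM-1 an adhesion molecule, and Irg1 (now Acod1) the enzyme that makes itaconate. Exons of Ppfibp2 and Icam1 overlap other genes.

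Over the 9 LPS-stimulated libraries, where 0.686% of genes exceeded an r of 0.9, the closest were Osbpl3 (r = 0.992), Ccl3 (0.991), Ezr (0.977), Cd200 (0.977), Cxcl2 (0.974), Rab11fip1 (0.973), Tfec (0.964), Zc3h12a (0.959), Tnfaip3 (0.959) and H2-Q4 (0.958). Ccl3 and Cxcl2 were the 2 genes on both lists. The points share their groups, and the 2 libraries apart on the second component are among the 18 and 1 of them among the 9. The correlations are descriptions of these libraries and carry no p. Ezr, Rab11fip1 and H2-Q4 have exons shared with other genes, and H2-Q4 belongs to a family of near-identical copies, so its counts are uncertain. In 4xLPS_LPS over PBS_LPS, Ccl3 had a log2 fold change of -1.31 (adjusted p = 0.0942, edgeR), and Cxcl2 had -1.21 (adjusted p = 0.17, edgeR). Both were chosen for following Tnf over libraries that include those of this comparison. A difference like that of Tnf was thus built into the choice and is no separate result.

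**Figure D5:**
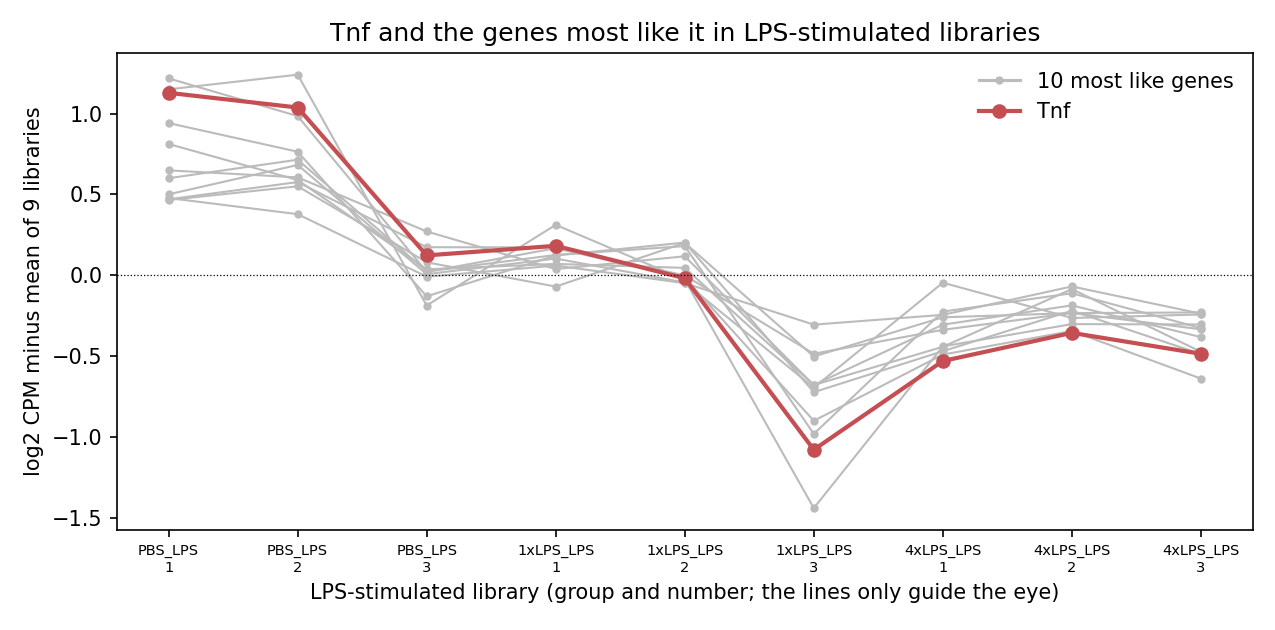
Log2 CPM minus the mean of the 9 LPS-stimulated libraries for Tnf (red) and the 10 genes with the highest Pearson correlation with it over those libraries (grey). The lines only guide the eye: PBS_LPS 1 and 2 are highest for Tnf and 1xLPS_LPS 3 is lowest.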

How the data were processed

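RNA of the 18 samples was extracted with an RNeasy kit, enriched for mRNA with Dynabeads, turned into libraries (Ion Total RNA-seq kit) and read on an Ion Proton sequencer, per the labels' protocols. Per the same labels, Torrent Suite 5.12 aligned reads to mm10 with TopHat2 and then Bowtie2, and Cufflinks was used for FPKM. How reads were counted per gene, with which annotation and strand setting, is not given in the sources used here. The deposited table is named for RPM but holds whole numbers with unequal sums, so its values were taken as raw counts per gene symbol deposited by the authors.

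The test covered the 14158 of 43280 symbols that reached 1 CPM in 3 or more libraries. EdgeR (4.0.16, R 4.3.3) fitted 1 mean per group over all 18 libraries with TMM scaling, no block and 12 residual degrees of freedom. P-values of each of 12 contrasts were adjusted by Benjamini-Hochberg, and a call needed an adjusted p under 0.05. DESeq2 (1.42.0), limma (3.58.1), other scalings, filters, subsets and left-out libraries were alternatives. The procedure was also run on counts simulated from the fitted spread, in which no library was made to lie apart. That run does not bear on how such libraries affect Tnf. Tnf, the 5 lists around it (96 other genes) and the tests were chosen with earlier results of these data known. Named genes were, per list, the 4 called genes of smallest p in the contrast described and the 2 uncalled ones of highest mean CPM, where there were as many, all genes at the locus, and the 10 most like Tnf with a mean of at least 5 CPM in their highest group (prior count 2). Same-numbered libraries of PBS_NO and 4xLPS_NO deviated together (r = 0.604, 0.205 and 0.385), which was so in none of the other 8 comparisons, and what a number marks is not given in the labels.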

Additional observations from a re-analysis of the deposited data

How the results depend on the processing

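The rise of Tnf with LPS was called in all 3 arms under every setting tried. Leaving out 1 library at a time gave log2 fold changes of 7.18 to 7.59 (PBS), 6.00 to 6.52 (1xLPS) and 6.00 to 6.07 (4xLPS). With a replicate block by number they were 7.32, 6.21 and 6.06, and 4xLPS_NO over PBS_NO was 0.02 (adjusted p = 1, edgeR). The block changed no call of Tnf, and 4xLPS_LPS over PBS_LPS had -1.24 (adjusted p = 0.0735, edgeR).

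Leaving out 1 library gave -0.0839 to 0.18 for 1xLPS_NO over PBS_NO, -0.0373 to 0.0681 for 4xLPS_NO over PBS_NO, -0.18 to 0.10 for 4xLPS_NO over 1xLPS_NO, -1.30 to -0.75 for 1xLPS_LPS over PBS_LPS, -1.57 to -1.11 for 4xLPS_LPS over PBS_LPS, and -0.56 to -0.0021 for 4xLPS_LPS over 1xLPS_LPS. The response differences ranged from -1.37 to -0.82 (1xLPS minus PBS), -1.58 to -1.11 (4xLPS minus PBS) and -0.51 to 0.0642 (4xLPS minus 1xLPS). Small values turned sign under other settings, with none called: 1xLPS_NO over PBS_NO without the 3 libraries set apart by an earlier analysis (-0.0713) and without the 2 apart on the second component (-0.0603), 4xLPS_NO over PBS_NO without a filter (-0.0001), 4xLPS_NO over 1xLPS_NO with library totals (0.0127), limma on log2(CPM + 1) (0.006) without the 3 libraries (0.10) and without the 2 (0.0740), and with limma also 4xLPS_LPS over 1xLPS_LPS (0.0452) and 4xLPS minus 1xLPS (0.0392).

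Calls gained were as follows. For 4xLPS_LPS over PBS_LPS these were DESeq2 (-1.34), no filter (-1.30), only the compared groups (-1.27), without the 3 libraries (-1.58) and without the 2 (-1.33). For 1xLPS_LPS over PBS_LPS they were no filter (-1.01) and without the 3 libraries (-1.03). For 4xLPS minus PBS they were no filter (-1.30, adjusted p = 0.0268, edgeR) and without the 3 libraries (-1.62). The cause was not tested. Over all genes, 4xLPS_LPS over PBS_LPS had 11 calls as reported, 0 to 54 with 1 library left out, 569 without the 3 libraries and 574 without the 2. Scaling by library totals moved the median of all genes from -0.02 to -0.23 in the PBS response and from 0.02 to 0.24 in 4xLPS_LPS over PBS_LPS. By Spearman's rho, 0 of the 10 genes most like Tnf over 18 libraries were kept, and 5 of 10 over the 9 stimulated libraries.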
